A study of Mus musculus with 35 samples.

Results

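The 10 histone deacetylase genes Hdac1 to Hdac9 and Hdac11 were examined in mouse embryonic neural progenitor cells that carry or lack Mettl14, a subunit of the enzyme that writes N6-methyladenosine (m6A) into messenger RNA. The members were taken by gene name, and all 10 of them were found among the 23665 gene names of the deposited expression tables. WT cells carried both Mettl14 alleles, Het cells were heterozygous for the deletion, and KO cells were homozygous for it. The labels describe a floxed Mettl14 allele made in G4 male embryonic stem cells, with its selection cassette removed by Flpe, and its deletion in the germ line with EIIa-Cre or in the brain with nestin-Cre. They do not say which cross gave each culture, nor the embryos' age beyond the embryonic stage. RNA-seq was available for 3 WT, 3 Het and 3 KO lines sequenced as batch 1 and for 2 WT and 2 KO lines sequenced as batch 3. Peak lists were available for the histone marks H3K27ac and H3K27me3 in 4 lines (WT lines 532 and 541, KO lines 530 and 534), and for m6A in WT cells only.

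Histone deacetylases remove acetyl groups from lysines of histones and other proteins. Class I enzymes (Hdac1, Hdac2, Hdac3, Hdac8) are mostly nuclear, and Hdac1 and Hdac2 are the paired catalytic subunits of the NuRD, Sin3, CoREST and MiDAC complexes, while Hdac3 works in the NCoR complex. Class IIa enzymes (Hdac4, Hdac5, Hdac7, Hdac9) have little deacetylase activity of their own, bind MEF2 transcription factors, and leave the nucleus bound to 14-3-3 proteins when kinases phosphorylate them. Hdac6, of class IIb, acts mainly in the cytoplasm on tubulin, cortactin and Hsp90, and Hdac11 is the sole class IV enzyme. In the developing brain Hdac1 and Hdac2 are known to be jointly required for progenitors to form neurons, with Hdac2 rising as neurons mature.

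Levels in RNA are given below as CPM, a count per library total that is scaled between libraries. The RNA libraries held 14087371 to 20046524 fragments, and 61.4% of the 13366 genes tested differed between KO and WT over both batches, so a called gene was the usual case. Counts over the whole Mettl14 locus include exons outside the deleted part and check nothing about the labels. They gave 22.6, 23.3 and 24.9 CPM in WT against 20.0, 22.4 and 22.4 in KO of batch 1, and 35.4 and 37.8 against 22.7 and 30.3 in batch 3. The 9 neural progenitor markers summed to 7784 to 8431 CPM in WT, 8081 to 8970 in Het and 4525 to 4949 in KO libraries of batch 1, and to 7712 to 8270 in WT and 5250 to 5501 in KO of batch 3, with 5 of the 9 lower and 2 higher in KO. Microglial markers summed to 0.398 to 2.19 CPM, with Aif1, Cx3cr1, Csf1r or Tmem119 at 0 in all libraries of some groups, and endothelial markers to 0.574 to 5.25 CPM. Summed fibroblast and pericyte markers went from 0.815 to 1.20 CPM in WT to 6.35 to 8.17 in KO of batch 1, and from 1.49 to 2.99 to 4.71 to 4.77 in batch 3. The 4 astrocyte markers summed to 132 to 307 CPM in KO against 212 to 271 in WT of batch 1, and to 38.4 to 53.2 against 118 to 150 in batch 3, although 3 of the 4 genes rose and 1 fell. The 7 neuron markers summed to 973 to 1171 CPM in KO against 1125 to 1176 in WT of batch 1, and to 815 to 978 against 998 to 1128 in batch 3, with 1 gene higher and 2 lower. The 7 oligodendrocyte lineage markers summed to 1243 to 1484 CPM in KO against 1558 to 1906 in WT of batch 1 and to 2556 to 2894 against 2076 to 2208 in batch 3, with 2 genes higher and 3 lower. In bulk RNA, fewer cells of a type and less RNA per cell cannot be told apart, and the part of these marker shifts in the results below was not tested.

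Levels of different genes were compared within a library by FPKM, which divides fragments by transcript length and by library depth. Hdac2 was the most abundant histone deacetylase transcript in every group, at 132 ± 5.3 FPKM (SD, n = 3) in WT of batch 1 and 155 ± 24 (SD, n = 2) in WT of batch 3. It held 43.5% and 39.8% of the summed FPKM of the 10 genes. Next in WT of batch 1 came Hdac5 at 51.3 ± 4.4 and Hdac3 at 50.0 ± 4.5, whose ranges overlapped, and then Hdac1 at 20.5 ± 0.81 FPKM (SD, n = 3 each). Hdac6, Hdac8 and Hdac4 lay close together at 10.8, 10.1 and 9.88 FPKM with overlapping neighbours, as did Hdac7 at 7.31 and Hdac9 at 7.27. Hdac11 was lowest at 3.48 ± 0.19 FPKM (SD, n = 3), and its libraries did not overlap those of Hdac9. Het cells of batch 1 kept this order. In WT of batch 3 the order was Hdac2, Hdac5, Hdac1, Hdac3, Hdac7, Hdac6, Hdac9, Hdac8, Hdac4 and Hdac11, with Hdac1 at 59.6 ± 4.8 and Hdac7 at 20.6 ± 2.6 FPKM (SD, n = 2). There, Hdac5 overlapped Hdac1, and each of Hdac6, Hdac9 and Hdac8 overlapped the next in order.

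**Figure D1:**
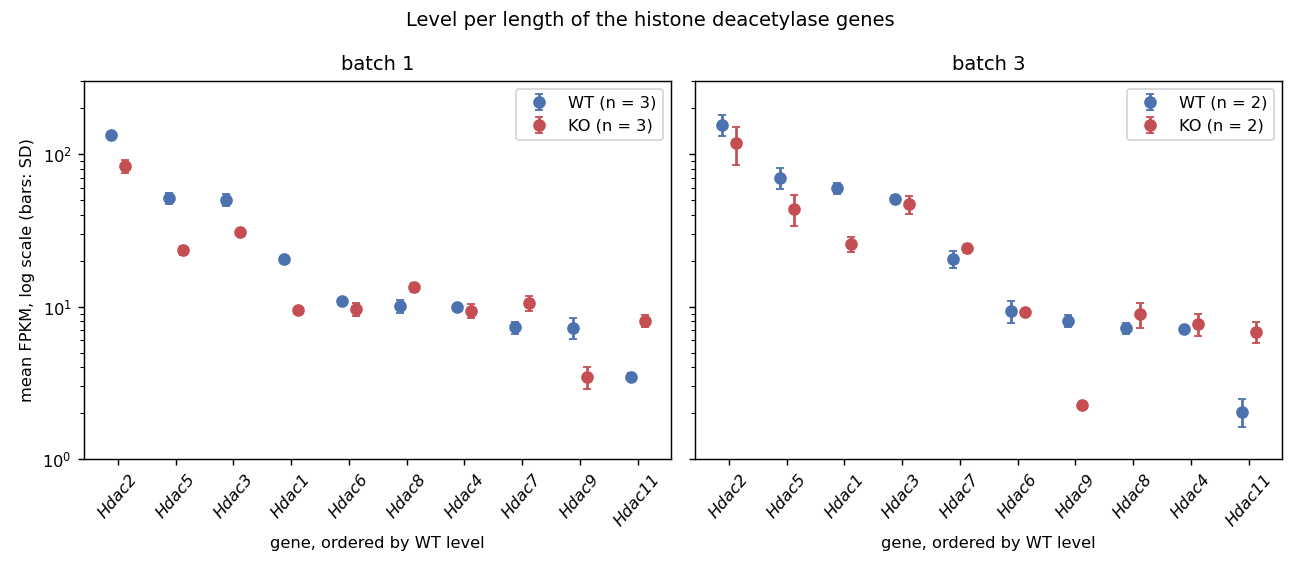
Mean FPKM of each gene (log axis, bars give the SD) in WT and KO libraries of batch 1 and batch 3, with genes ordered by their WT level in that batch. Hdac2 is highest in every group, Hdac11 is lowest in WT, and Hdac9 is lowest in KO.

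In KO cells the bottom of the order changed places. Hdac9, in the ninth place in WT of batch 1 and the seventh in batch 3, was the lowest gene in KO at 3.44 ± 0.56 FPKM (SD, n = 3) in batch 1 and 2.26 ± 0.10 (SD, n = 2) in batch 3, below Hdac11 at 8.10 ± 0.74 and 6.86 ± 1.1. Hdac1 in batch 1 fell from the fourth to the seventh place, at 9.43 ± 0.51 FPKM (SD, n = 3), level with Hdac6 and Hdac4 within the spread of the libraries. The shares of the 2 larger classes in the summed FPKM overlapped between genotypes: class I held 70.2% ± 1.8 in WT and 67.9% ± 2.6 in KO of batch 1 (SD, n = 3), and class IIa 25.1% ± 1.9 and 23.3% ± 1.9 (SD, n = 3). Class IIb, here Hdac6 alone, held 3.54, 3.57 and 3.61% in WT and 4.27, 4.99 and 5.07% in KO of batch 1, and 2.08 and 2.73% against 2.82 and 3.60% in batch 3, without overlap. The FPKM of Hdac6 itself did not rise, at 10.8 in WT and 9.61 in KO of batch 1 and 9.35 and 9.23 in batch 3. Its share rose as the summed FPKM, given below, fell. Class IV, which is Hdac11 alone, went from 1.10, 1.16 and 1.20% of the sum in WT to 3.74, 3.81 and 4.55% in KO of batch 1, and from 0.442 and 0.612% to 1.88 and 2.94% in batch 3, with no overlap. The summed FPKM of the 10 genes was 296, 297 and 313 in WT, 300, 302 and 311 in Het and 197, 203 and 204 in KO of batch 1. It was 383 and 397 in WT and 259 and 325 in KO of batch 3, so the KO libraries were lower in both batches. The size of this fall depends on the measure. Hdac4 gave 9.88 FPKM in WT and 9.35 in KO of batch 1, but 68.9 and 72.1 CPM. Hdac9 differed the other way, at 7.27 and 3.44 FPKM and 41.8 and 18.3 CPM.

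Loss of Mettl14 was accompanied by lower RNA of Hdac1, Hdac2, Hdac3, Hdac5 and Hdac9 and by higher RNA of Hdac7, Hdac8 and Hdac11. Hdac9 fell by 62.4%, Hdac1 fell by 54.1%, and Hdac11 was 2.83-fold higher over both batches. Hdac4 and Hdac6 did not pass the test, with log2 changes of 0.10 (SE 0.079) and -0.02 (SE 0.075). The 8 called members compare with 61.4% of all genes tested, and the 3 higher and 5 lower with 30.3% and 31.1%, so the count itself is near the background. The median of the members' absolute log2 changes was 0.55, against 0.44 over all 13366 genes, and the median of their signed changes was -0.20 against 0.0022. Each change below is from edgeR's quasi-likelihood test with batch as a term, in log2 units, with Benjamini-Hochberg adjustment over all genes tested. The labels give each library a line number of its own without naming the animals, so p-values measure the spread between these libraries, which may be technical in part.

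**Figure D2:**
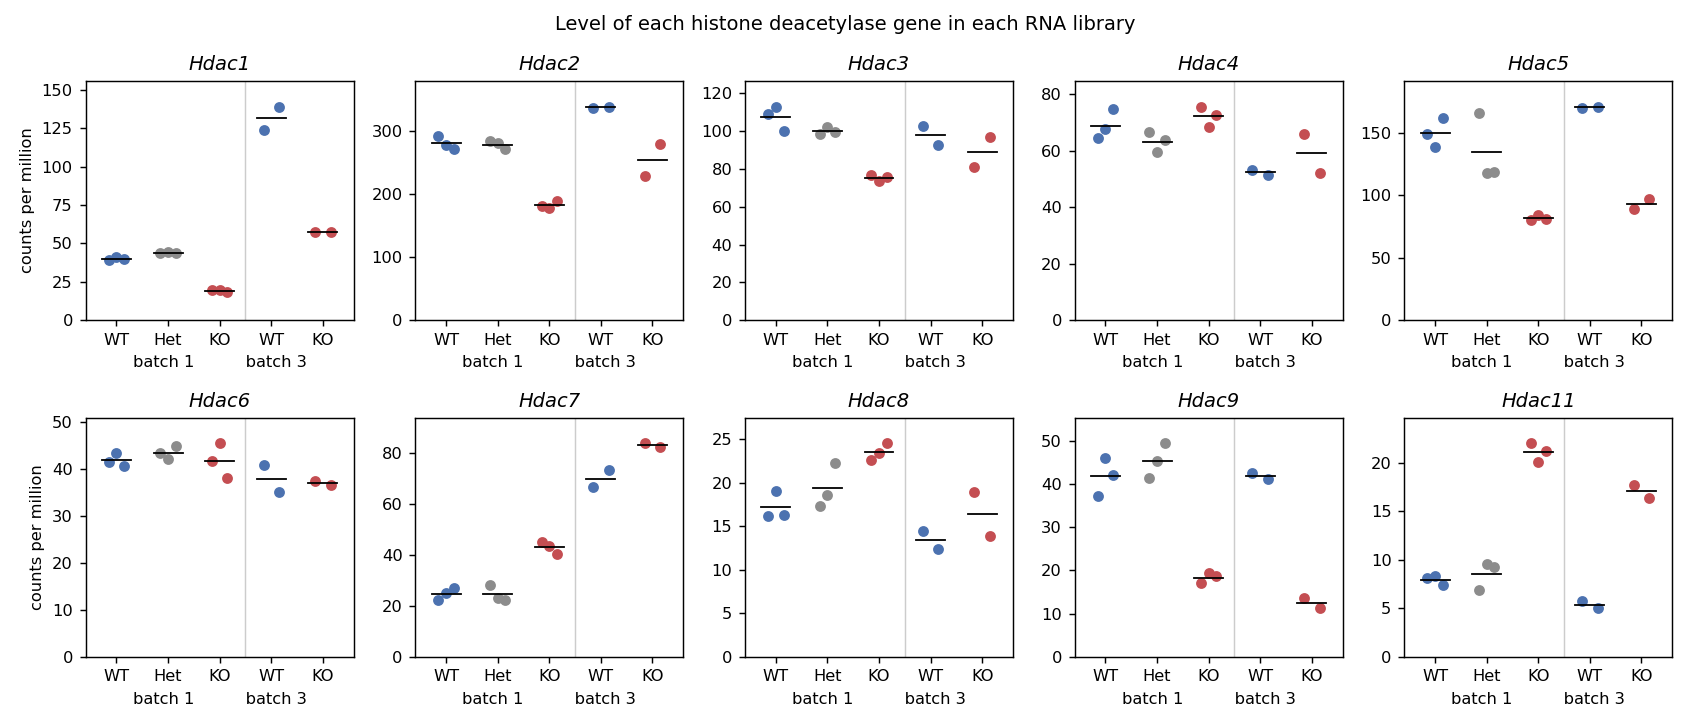
CPM of each gene (y axes start at 0 and differ between panels), 1 point per library and a bar at the group mean, for WT, Het and KO in batch 1 (3 libraries each) and WT and KO in batch 3 (2 each). KO points of Hdac1, Hdac2, Hdac5 and Hdac9 lie below all WT points of their batch, and those of Hdac7 and Hdac11 above them.

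Among class I genes, Hdac1 (chr4:129516104-129542646, minus strand, mm10) stood at 39.4, 39.7 and 41.2 CPM in WT, 43.4, 43.5 and 44.1 in Het and 18.4, 19.5 and 19.9 in KO of batch 1. In batch 3 it stood at 124 and 139 CPM in WT against 57.4 and 57.6 in KO. WT and KO did not overlap in either batch, and the change was -1.12 (SE 0.067, edgeR adjusted p = 5.6e-07). Its WT level was 3.28 times higher in batch 3 than in batch 1, a ratio of at least 2 that 6.32% of the genes tested reached. In batch 1 the assembled Hdac1 locus shared 145 exonic bases, 6.69% of its total, with Marcksl1 on the opposite strand, and its fragment counts were not whole in all 9 libraries, whereas in batch 3 it shared none. Marcksl1 rose by 0.33 (SE 0.074, edgeR adjusted p = 0.0035) in batch 1, opposite to Hdac1, and whether the counting used strand is not given in the sources used here. RefSeq also lists an Hdac1 pseudogene on chromosome 17, where neither table has a locus, and reads shared with it were not tested.

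Hdac2 (chr10:36974544-37003882, plus strand), the partner and closest relative of Hdac1, gave 271, 277 and 292 CPM in WT and 178, 180 and 189 in KO of batch 1, and 336 and 338 against 228 and 279 in batch 3. The groups were apart in both batches and the change was -0.54 (SE 0.070, edgeR adjusted p = 6.4e-05). The smaller fall of Hdac2 than of Hdac1 moved the balance of the pair. By FPKM, Hdac1 made up 13.4, 13.5 and 13.5% of the pair's sum in WT and 9.05, 10.1 and 11.6% in KO of batch 1, and 26.8 and 28.9% against 16.5 and 20.1% in batch 3.

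Hdac3, on chromosome 18, had 100, 109 and 113 CPM in WT and 73.6, 75.9 and 76.8 in KO of batch 1. In batch 3 its values were 92.7 and 103 CPM in WT and 81.3 and 96.8 in KO, which overlapped. Over both batches the change was -0.37 (SE 0.083, edgeR adjusted p = 0.0028), and batch 3 alone gave -0.13 (SE 0.14, adjusted p = 0.51). Hdac8 (chrX:102284640-102505148, minus strand), which deacetylates the cohesin subunit Smc3, was the class I gene that rose. It had 16.2, 16.3 and 19.0 CPM in WT and 22.6, 23.4 and 24.5 in KO of batch 1, without overlap, but 12.4 and 14.4 against 13.9 and 18.9 in batch 3, with overlap. The change over both batches was 0.38 (SE 0.11, edgeR adjusted p = 0.011).

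The class IIa genes went in different directions. Hdac9 (chr12:34047582-34917095, minus strand), which is also made as a short form without the catalytic domain, fell furthest of the 10 genes. Its CPM values were 37.3, 42.1 and 46.0 in WT and 17.1, 18.6 and 19.3 in KO of batch 1, and 41.1 and 42.6 against 11.4 and 13.6 in batch 3. No KO library reached a WT library, and the change was -1.41 (SE 0.13, edgeR adjusted p = 5.9e-06). Hdac5 (chr11:102194351-102230172, minus strand) was the most abundant class IIa gene in every group. It gave 139, 149 and 162 CPM in WT and 80.3, 81.0 and 84.5 in KO of batch 1, and 170 and 171 against 88.7 and 97.3 in batch 3, again with no overlap (change -0.88, SE 0.061, edgeR adjusted p = 1.3e-06). In batch 1 its locus shared 222 exonic bases, 3.76% of the total, with BC030867 on the other strand, which fell by 0.52 (SE 0.17, edgeR adjusted p = 0.022) there, and in batch 3 it shared none. In batch 3 alone the change of Hdac5 was -0.88.

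Hdac7 (chr15:97792664-97844502, minus strand) rose where its relatives Hdac5 and Hdac9 fell. The values were 22.3, 25.1 and 26.9 CPM in WT and 40.5, 43.4 and 45.0 in KO of batch 1, and 66.6 and 73.1 against 82.1 and 83.7 in batch 3. KO lay above WT in both batches and the change was 0.56 (SE 0.11, edgeR adjusted p = 0.0013). Its locus shared 74 exonic bases with Slc48a1 on the opposite strand in batch 1 and 29 in batch 3, 1.42% and 0.577% of its exonic bases, and Slc48a1 rose by 1.30 (SE 0.10, edgeR adjusted p = 2.8e-06). Its WT level was 2.82 times higher in batch 3 than in batch 1. Hdac4 (chr1:91932749-92148393, minus strand) showed 64.5, 67.6 and 74.6 CPM in WT and 68.4, 72.5 and 75.6 in KO of batch 1, and 51.5 and 53.3 against 52.2 and 66.0 in batch 3, overlapping in both (edgeR adjusted p = 0.28). As a share of class IIa FPKM, Hdac5 went from 64.6 to 69.4% in WT to 49.5 to 50.8% in KO of batch 1 and Hdac7 from 9.13 to 10.2% to 21.5 to 23.9%. In batch 3 these shares were 64.3 and 67.5% against 50.0 and 61.3% for Hdac5, and 19.5 and 19.6% against 27.8 and 35.0% for Hdac7.

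Outside these classes, Hdac6 (chrX:7930122-7947889, minus strand) was level, with 40.7, 41.6 and 43.5 CPM in WT and 38.2, 41.8 and 45.5 in KO of batch 1, and 35.2 and 40.8 against 36.6 and 37.4 in batch 3. The ranges of WT and KO overlapped in both batches and the adjusted p was 0.81 (edgeR). Hdac11 (chr6:91156815-91174683, plus strand), known for removing fatty acyl groups from lysine as well, rose most. It went from 7.38, 8.15 and 8.35 CPM in WT to 20.1, 21.2 and 22.0 in KO of batch 1, and from 5.00 and 5.73 to 16.4 and 17.7 in batch 3. Every KO library was above every WT library of its batch, and the change was 1.50 (SE 0.10, edgeR adjusted p = 1.0e-06). KO lay wholly above WT in both batches for 2 members, against 24.1% of all genes tested, and wholly below for 4, against 24.0%.

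The batches were also fitted alone. In batch 1, 8 members were called, where 69.4% of the 13422 genes tested were, and they were the same 3 higher and 5 lower. In batch 3, with 2 libraries a group, 4 members were called, where 31.7% of 12835 genes were: Hdac11 higher and Hdac1, Hdac5 and Hdac9 lower. Hdac2 in batch 3 gave -0.41 (SE 0.15, edgeR adjusted p = 0.064), Hdac7 0.25 (SE 0.13, adjusted p = 0.18) and Hdac8 0.29 (SE 0.22, adjusted p = 0.35). Without KO library 2 of batch 3, Hdac2 (adjusted p = 7.4e-04) and Hdac4 (adjusted p = 0.039) were called in that batch too, and without KO library 1 Hdac2 was (adjusted p = 0.041).

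**Figure D3:**
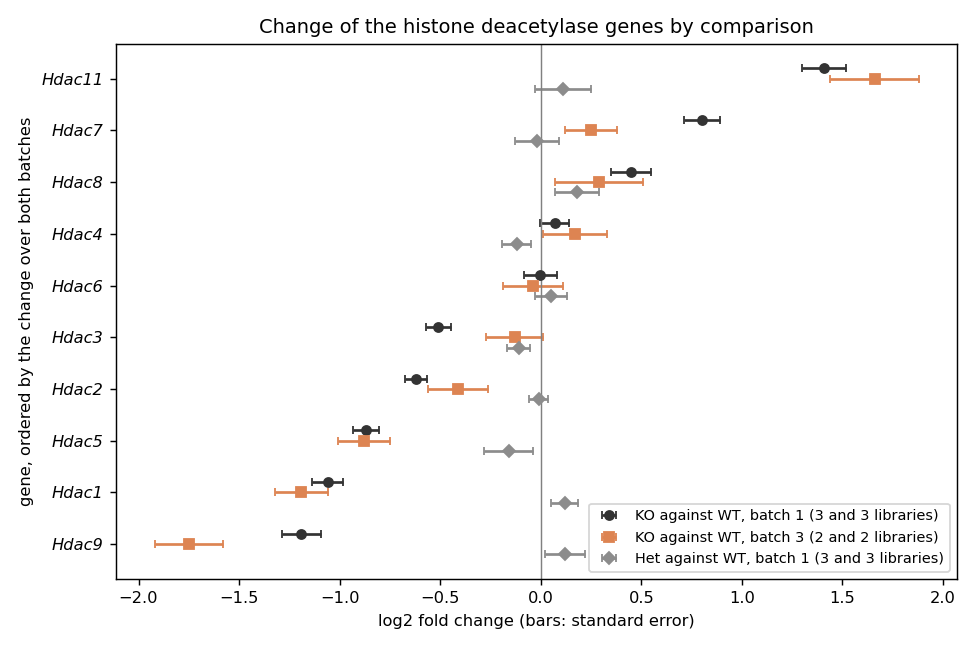
Log2 fold change (x axis, bars give the standard error) of each gene for KO against WT in batch 1 and in batch 3, and for Het against WT in batch 1. KO changes run from -1.19 and -1.75 for Hdac9 to 1.41 and 1.66 for Hdac11 in batches 1 and 3, and Het changes lie between -0.16 and 0.18.

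The size of the KO change differed between batches for Hdac7 and Hdac9 by an interaction term, where 14.4% of the 13632 genes tested did. Hdac7 rose by 0.80 (SE 0.090) in batch 1 and by 0.21 (SE 0.11) in batch 3 in the joint fit, a difference of -0.59 (SE 0.14, edgeR adjusted p = 0.022). Hdac9 gave -1.18 (SE 0.11) and -1.78 (SE 0.14), a difference of -0.60 (SE 0.18, edgeR adjusted p = 0.043). Both calls were lost with limma on log2(FPKM + 1), where Hdac7 gave -0.26, and without KO library 2, WT library 1 or WT library 2 of batch 3. That of Hdac9 was also lost without KO library 2 or 3 or any WT library of batch 1 and without a low-count filter (adjusted p 0.052 to 0.15 over all such settings). Hdac3 came next, with a difference of 0.33 (SE 0.13) at an edgeR adjusted p of 0.11.

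Deletion of a single Mettl14 allele was not accompanied by a called change of any member. The Het changes ran from -0.16 for Hdac5 (SE 0.12) to 0.18 for Hdac8 (SE 0.11), and none passed an unadjusted p of 0.05 with edgeR, where 8.58% of 13672 genes did. DESeq2 also called 0 members, and 0 at an unadjusted p under 0.05, while limma without a filter gave 1 at that level, Hdac1. Only 0.0146% of genes were called by edgeR in this comparison. The Het libraries of Hdac1, at 43.4 to 44.1 CPM, lay above the WT libraries at 39.4 to 41.2, while KO lay at 18.4 to 19.9. That Het change was 0.12 (SE 0.067, edgeR unadjusted p = 0.095), and the share of all genes with such a gap was not computed. For Hdac5, Het library values of 118, 119 and 166 CPM spread wider than the WT values of 139 to 162. Without Het library 1, which is the high one, Hdac5 gave -0.34 (edgeR adjusted p = 0.13), and Hdac11 gave 0.24 (adjusted p = 0.38) where all libraries gave 0.11.

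KO against Het in batch 1 uses the KO libraries again, so its calls are not separate evidence. It called 9 members, where 68.0% of genes were called. The change was -1.18 (SE 0.070) for Hdac1, -0.60 (SE 0.049) for Hdac2, -0.41 (SE 0.057) for Hdac3, -0.71 (SE 0.12) for Hdac5 and -1.31 (SE 0.10) for Hdac9. Hdac7 gave 0.81 (SE 0.11) and Hdac11 1.30 (SE 0.13). Hdac8 at 0.28 (SE 0.11, edgeR adjusted p = 0.043) and Hdac4 at 0.19 (SE 0.073, adjusted p = 0.037) were near the threshold. Hdac4 lost its call with limma on log2(FPKM + 1) (-0.0038) and without Het library 2 or 3, KO library 1 or 3 or WT library 2 (adjusted p 0.059 to 0.13). Hdac8 lost its call with limma, without a low-count filter, and without Het library 1 or 2, KO library 2 or 3 or WT library 3 (adjusted p 0.055 to 0.14). Hdac6, at -0.06 (adjusted p = 0.52) with edgeR, was called lower by limma on log2(FPKM + 1) at -0.27 (adjusted p = 0.015).

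The counts of partner genes below are descriptions, to be read beside the 30.3% of all genes tested that rose and the 31.1% that fell over both batches, and no list was tested as a set. A partner gene called over both batches need not be called in each batch alone. Of partners named below, Rbbp7, Ing1, Esco2, Mef2c, Camk1, Hsp90aa1 and Sirt4 differed between batches by the interaction term (edgeR adjusted p 0.014 to 0.048). In batches 1 and 3, Camk1 gave -0.82 and -0.07, Sirt4 0.84 and 0.15, and Ing1 0.11 and 0.56. Rbbp7 gave -1.35 and -0.62, Esco2 -1.74 and -0.66, and Hsp90aa1 -1.23 and -0.42. Mef2c was lower in both. Among the subunits that carry Hdac1 and Hdac2 into complexes, of 12 NuRD genes, 1 rose and 6 fell over both batches (median log2 change -0.19, against 0.00 for all genes). The histone chaperones Rbbp7 and Rbbp4 fell by 1.07 (SE 0.13, edgeR adjusted p = 4.4e-05) and 0.59 (SE 0.068, adjusted p = 2.9e-05). Both were counted in the NuRD list and not in the Sin3 list, and the counts of these lists depend on that choice. Chd3, an ATPase of the complex, rose by 1.48 (SE 0.21, adjusted p = 1.2e-04), while its relatives Chd4 and Chd5 gave -0.15 (adjusted p = 0.094) and 0.15 (adjusted p = 0.51). Mta2, Gatad2a, Gatad2b and Mbd2 fell by 0.50, 0.45, 0.26 and 0.22. In the Sin3 list 2 of 13 rose and 4 fell, the falls near the share over all genes (median -0.09), led by Brms1l at -0.61 (SE 0.069) and Sin3b at -0.24 (SE 0.064) on the lower side, where Sin3a and Arid4a both gave -0.23, and Sap30l at 0.43 (SE 0.086) and Ing1 at 0.29 (SE 0.086) on the higher. Of 10 CoREST genes 3 rose and 1 fell: Phf21a by 0.61 (SE 0.076) and Rest, the repressor of neuronal genes that recruits CoREST, by 0.47 (SE 0.082), and Zmym3 by 0.27 (SE 0.098), against Rcor1 at -0.41 (SE 0.064). In MiDAC, Trerf1 and Elmsan1 rose by 0.44 (SE 0.15) and 0.39 (SE 0.082) among 3 genes tested, and Dnttip1 gave -0.0082.

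For Hdac3's NCoR complex, 2 of 5 genes fell, near the share over all genes, and none rose. They were Gps2 at -0.53 (SE 0.089) and Tbl1xr1 at -0.39 (SE 0.085), while the corepressor Ncor1, at 0.02, did not pass the test. Of 8 genes of cohesin and its loading and acetylation, to which Hdac8 belongs by its substrate, 6 fell and 1 rose (median -0.50). Smc1a fell by 1.16 (SE 0.11, edgeR adjusted p = 6.7e-06) and Esco2, the acetyltransferase whose mark on Smc3 is removed by Hdac8, by 1.31 (SE 0.21, adjusted p = 3.2e-04). The core subunits Smc3 and Rad21 fell by 0.72 (SE 0.082) and 0.57 (SE 0.069). The loader Nipbl rose by 0.26 (SE 0.085, adjusted p = 0.019). Hdac8 itself rose, as given above.

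Around class IIa, the 4 MEF2 genes split, with Mef2b higher by 1.43 (SE 0.29, edgeR adjusted p = 0.0014), Mef2c lower by 1.26 (SE 0.15, adjusted p = 3.0e-05), and Mef2a at -0.14 and Mef2d at 0.05 not called. Of the 11 kinases that can phosphorylate class IIa enzymes, 1 rose and 5 fell (median -0.11). Camk1d fell by 0.95 (SE 0.16) and Prkd1, protein kinase D1, by 0.87 (SE 0.12), and Sik3, Camk1 and Mark3 fell by 0.55, 0.53 and 0.28, while Sik1 rose by 0.91 (SE 0.17). Of 7 14-3-3 genes, 4 fell and 1 rose (median -0.42): Ywhaq and Ywhae fell by 0.95 (SE 0.063) and 0.62 (SE 0.077), Ywhaz and Ywhab by 0.55 and 0.42, and Ywhag rose by 0.44 (SE 0.089). Of 7 substrates and partners of Hdac6, 5 fell and 1 rose (median -0.45), although Hdac6 itself was level. The chaperone Hsp90aa1 and the tubulin-binding Tppp fell by 0.91 (SE 0.14) and 0.57 (SE 0.15), the substrate Cttn (cortactin), Vcp and Hsp90ab1 by 0.50, 0.45 and 0.31, and the autophagy receptor Sqstm1 rose by 0.45 (SE 0.10). Among 6 sirtuins tested, the NAD-dependent deacetylases that form a separate family, 3 rose and none fell (median 0.27), with Sirt4 at 0.56 (SE 0.16) and Sirt5 at 0.51 (SE 0.13), and Sirt2 at 0.27 (SE 0.073).

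For members other than Hdac1, the gene whose pattern was most like each was found by Pearson correlation of log2(CPM + 1) over 13 libraries, centred on each batch's mean, among the genes tested. The libraries share the genotype difference that most of these genes carry, and the values are a description. Hdac2 was most like Rbbp4, the NuRD subunit named above (r = 0.992), and Hdac3 like Ufc1 (r = 0.982). Hdac5 was most like Trim71 (r = 0.985), Hdac7 like Sh3pxd2a (r = 0.985), Hdac8 like C030039L03Rik (r = 0.969), Hdac9 like Ak3 (r = 0.987) and Hdac11 like Lix1l (r = 0.995). For Hdac2, Hdac5, Hdac7 and Hdac9 the next gene in order had the same r to the digits given, so the gene named did not stand apart. The 2 genes without a called change had looser neighbours, Ptar1 for Hdac4 (r = 0.894) and Lrrc39 for Hdac6 (r = 0.766). Among the members, Hdac1 and Hdac9 were most alike (r = 0.98), and Hdac11 ran opposite to Hdac1 and Hdac5 (r = -0.98 each).

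H3K27ac marks active promoters and enhancers and is itself an acetyl mark that class I deacetylases remove. A peak lay within 2 kb of an assembled start site in all 4 lines for 8 of the 10 genes, where 88.2% of 13213 expressed genes had such a peak. The exceptions were Hdac8, without a peak in WT line 541 and with 505 to 544 bases under a peak of 3.57- to 3.97-fold in the other 3 lines, and Hdac9, without a peak in KO line 530. Fold enrichments are the authors' values per peak and are used to describe the lists. Peak lists have no counts, so their depth is unknown, and with 2 lines a genotype no comparison of lines was tested.

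The promoters of Hdac2 and Hdac4 carried tall peaks, 10.9- and 12.5-fold over input in WT lines and 11.9- and 15.8-fold in KO lines for Hdac2, and 12.2- and 12-fold against 11.7- and 14.8-fold for Hdac4. The Hdac4 peak lay at an assembled start at 92180050 of chromosome 1, and none lay at the start near 92148543 in any line. The main Hdac7 start had 8.99- and 11.6-fold in WT and 9.94- and 14.9-fold in KO lines, which overlapped. At Hdac1 the peak was 8.01- and 4.74-fold in WT and 7.77- and 6.43-fold in KO lines, and at Hdac5 6.10- and 5.93-fold against 5.72- and 6.56-fold. Hdac11, whose RNA rose most, had 5.07- and 3.86-fold in WT and 5.35- and 3.21-fold in KO lines at its upstream start, again overlapping. Hdac6 had 4.72- and 4.60-fold against 5.07- and 5.32-fold, and Hdac3 5.74- and 4.67-fold against 5.67- and 7.28-fold. At these starts the enrichment ranges of WT and KO lines overlapped for all of these genes but Hdac6, where both KO values were above both WT values. A downstream Hdac11 start, at 91166038, had low peaks, 2.68- and 2.61-fold in WT and 2.86- and 2.97-fold in KO lines. There too both KO values were above both WT values. The share of all genes with such gaps was not computed, so the gaps are not read as differences between genotypes.

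At Hdac9 the mark was found at an internal start (position 34528889 of chromosome 12), the first exon of a 12-exon known transcript, and not at the upstream start at 34917095. Peaks covered 1994 and 2006 of the bases around it in WT lines 532 and 541, none in KO line 530 and 217 in KO line 534. Over the span of the gene's known transcripts and 2 kb on each side, H3K27ac peaks covered 7.51 and 5.03 kb in the WT lines and 0.524 and 1.40 kb in the KO lines, in 11 and 6 against 1 and 4 peaks. These spans are those of known transcripts, and that of Hdac4 leaves out the assembled start at 92180050 and its peak. Over them, both KO lines were below both WT lines for Hdac2, Hdac4 and Hdac9, a rule that 35.5% of genes met, and by at least 2-fold for Hdac9 alone of the members, where 6.86% of genes did. All H3K27ac peaks together covered 82.7 and 68.7 Mb in the WT lists and 50.5 and 64.8 Mb in the KO lists, so the lists differ in extent as well. The WT peaks at the internal start were low, 3.92- and 3.31-fold over input in lines 532 and 541. The peak of KO line 534 there was also 3.31-fold, so it differed from that of WT line 541 in width and not in enrichment.

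**Figure D4:**
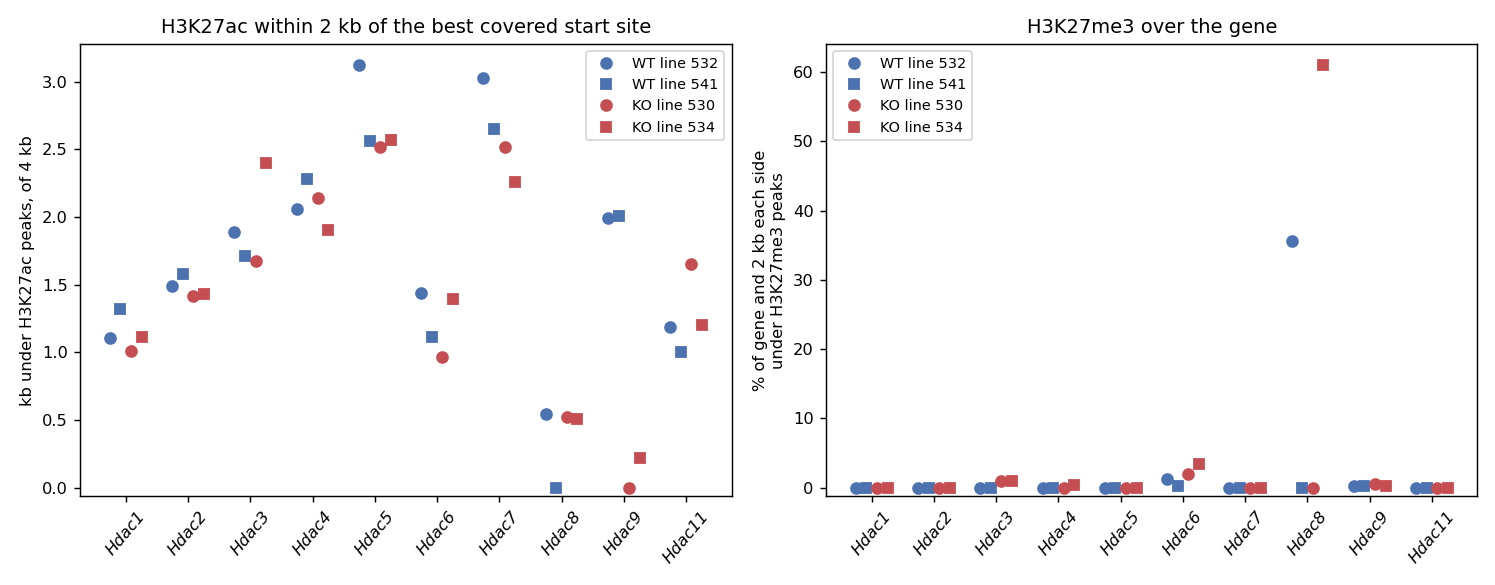
Left, kb under H3K27ac peaks within 2 kb of the best covered start site of each gene, and right, the percentage of each gene and 2 kb on each side under H3K27me3 peaks, in WT lines 532 and 541 and KO lines 530 and 534. Hdac9 has 1994 and 2006 bases under H3K27ac in WT against 0 and 217 in KO lines, and Hdac8 has H3K27me3 over 35.6% in WT line 532 and 61.0% in KO line 534.

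The sequences below are shown because a peak lay over part or all of each in some or all lines, and because they differ in makeup. Each is the 250 bases upstream of a RefSeq start, on the gene's own strand. They come from RefSeq's table for GRCm38.p6, in which 8 of the 10 members have an entry. The RefSeq starts of Hdac4 (92180341) and Hdac8 (102505158) differ from the assembled starts used for the peaks, 92180050 and 102505418. Capitals mark letters of a GC box (GGGCGG). They also mark a CCAAT box, searched as those letters, and a TATA box (TATAAA). Each was searched on both strands, so that its reverse complement is marked too, and a match is a run of letters and not a shown binding site.
Hdac9, internal start, chr12:34528890-34529139, minus strand: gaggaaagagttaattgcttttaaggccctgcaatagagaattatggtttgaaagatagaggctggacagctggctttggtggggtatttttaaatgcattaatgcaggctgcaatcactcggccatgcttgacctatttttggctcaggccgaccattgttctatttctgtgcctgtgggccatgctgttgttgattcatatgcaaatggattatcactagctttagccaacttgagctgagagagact
Hdac2, chr10:36974294-36974543, plus strand: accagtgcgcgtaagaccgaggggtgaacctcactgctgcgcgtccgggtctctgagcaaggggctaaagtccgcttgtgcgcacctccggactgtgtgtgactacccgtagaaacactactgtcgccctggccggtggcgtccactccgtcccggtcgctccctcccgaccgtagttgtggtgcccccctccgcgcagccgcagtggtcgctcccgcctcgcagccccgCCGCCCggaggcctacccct
Hdac4, chr1:92180342-92180591, minus strand: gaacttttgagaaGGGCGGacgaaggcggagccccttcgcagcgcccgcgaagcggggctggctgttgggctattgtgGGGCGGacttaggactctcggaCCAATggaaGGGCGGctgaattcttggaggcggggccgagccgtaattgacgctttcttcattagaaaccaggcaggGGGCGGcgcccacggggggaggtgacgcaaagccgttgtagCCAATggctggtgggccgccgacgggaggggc
Hdac5, chr11:102230173-102230422, minus strand: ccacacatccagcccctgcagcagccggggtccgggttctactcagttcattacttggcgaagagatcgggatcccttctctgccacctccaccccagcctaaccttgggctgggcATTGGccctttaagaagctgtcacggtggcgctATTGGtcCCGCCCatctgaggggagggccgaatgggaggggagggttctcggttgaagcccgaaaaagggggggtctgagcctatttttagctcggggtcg
Hdac7, chr15:97831768-97832017, minus strand: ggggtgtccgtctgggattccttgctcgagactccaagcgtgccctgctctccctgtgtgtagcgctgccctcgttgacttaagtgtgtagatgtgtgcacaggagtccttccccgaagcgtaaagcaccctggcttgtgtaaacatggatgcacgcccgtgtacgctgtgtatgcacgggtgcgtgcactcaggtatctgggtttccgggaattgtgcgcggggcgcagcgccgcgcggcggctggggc
Hdac8, chrX:102505159-102505408, minus strand: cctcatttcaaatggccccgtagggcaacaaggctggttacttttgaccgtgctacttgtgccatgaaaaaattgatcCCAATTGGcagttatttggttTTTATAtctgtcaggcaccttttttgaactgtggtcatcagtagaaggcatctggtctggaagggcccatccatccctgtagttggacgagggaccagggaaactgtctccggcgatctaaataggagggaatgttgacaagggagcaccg
Hdac11, chr6:91156565-91156814, plus strand: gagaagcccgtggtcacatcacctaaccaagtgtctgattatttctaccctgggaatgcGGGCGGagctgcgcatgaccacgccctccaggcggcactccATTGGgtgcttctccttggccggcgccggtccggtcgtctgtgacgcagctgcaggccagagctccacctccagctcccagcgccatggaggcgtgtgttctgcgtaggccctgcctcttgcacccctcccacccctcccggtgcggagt

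The Hdac2 window holds 27 CpG dinucleotides and is 68.8% G and C, and the Hdac4 window 23 and 65.2%, against a median of 6 CpG and 52.4% over the table's 32851 windows of this length. The Hdac9 window holds 2 CpG and is 43.6% G and C, the fewest CpG of those printed, and contains none of the motifs marked, as does the Hdac7 window printed, which holds 21 CpG. A GC box occurs in 32.7% of all windows and a CCAAT box in 33.8%. Hdac4 has 4 GC boxes and 2 CCAAT boxes, Hdac5 has 1 and 2, Hdac11 has 1 of each, and Hdac2 has 1 GC box. The Hdac8 window holds 2 CCAAT matches that overlap on opposite strands, and it is the one printed with a TATA match, a motif found in 12.4% of windows. The Hdac6 window, not printed, holds 17 CpG, 4 GC boxes and 2 CCAAT boxes. The table has 4 windows for Hdac7 and 2 for Hdac9. Those printed lie before an assembled start with a tall peak or with covered bases that split by genotype, a choice made after the peaks were seen. The other Hdac7 windows hold 5, 25 and 6 CpG, and the one before position 97831495 holds a GC box. The other Hdac9 window holds 0 CpG.

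H3K27me3, the mark of Polycomb repression, was rarely found at the members' promoters. No member had a peak at a start site in all 4 lines, where 10.7% of genes did, and 8 of 10 had none in any line, where 73.1% of genes had none. Hdac3 had a single peak of 204 bases in KO line 534. Hdac8, on the X chromosome, was the marked exception: H3K27me3 covered 79.9 kb, 35.6% of the gene and its flanks, in WT line 532 and 137 kb, 61.0%, in KO line 534, and none in WT line 541 or KO line 530. The split ran across genotypes. The share of all H3K27me3-covered bases that lay on the X chromosome was 16.4% in line 532 and 28.6% in line 534, against 0.573% in line 541 and 0.821% in line 530, and its part in the Hdac8 result was not tested. Hdac6, also on the X chromosome, had 0.0600 to 0.754 kb under H3K27me3 peaks in the 4 lines. Within Hdac9 such peaks covered 1.80 and 1.33 kb in the WT and 4.52 and 2.37 kb in the KO lines, at most 0.518% of the gene, away from its starts. Both KO values were above both WT values, as for Hdac3 and Hdac6. The share of all genes with such a gap was not computed, so it is not read as a difference between genotypes. All H3K27me3 peaks together covered 58.8 and 42.2 Mb in the WT and 48.9 and 65.5 Mb in the KO lists. At the RNA level Hdac8 had 12.4 and 14.4 CPM in the WT and 13.9 and 18.9 in the KO libraries of batch 3, made from lines of the same numbers, but the tables do not tie a library to a line.

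m6A is added to adenines of messenger RNA by the complex that contains Mettl14. Peaks were mapped in WT cells by antibody capture, as 4 lists that pair each of 2 immunoprecipitations with each of 2 inputs without naming the line, so the lists share libraries and are not 4 replicates. No KO cells were mapped, so whether a given peak depends on Mettl14 was not tested. An exonic peak was found in all 4 lists for Hdac1, Hdac4, Hdac5, Hdac8 and Hdac9, 5 of 10 members, where 42.5% of genes had one. Hdac2, Hdac3 and Hdac11 had none in any list, as 33.1% of genes. Hdac6 and Hdac7 had peaks in some of the lists.

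**Figure D5:**
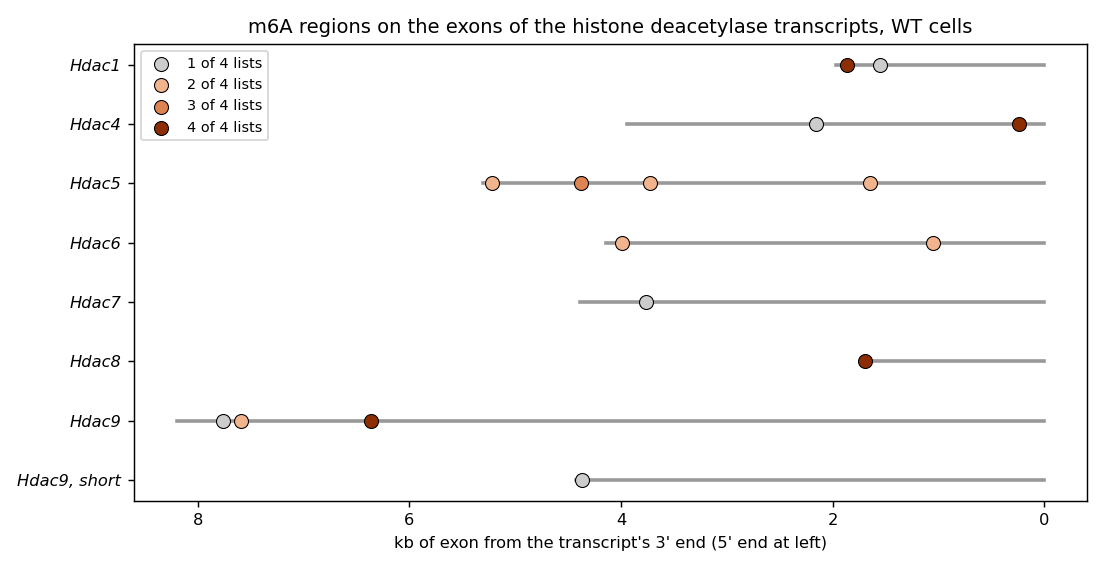
Position of each m6A region along the exons, in kb of exon from the 3′ end of the transcript (grey line, 5′ end at the left), coloured by the number of the 4 lists that hold it, in WT cells. The region of Hdac4 found in all 4 lists lies 0.234 kb from the 3′ end of its known transcript, and those of Hdac1, Hdac8 and Hdac9 lie 1.86, 1.69 and 6.36 kb from it, toward the 5′ end.

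The same region was held by all 4 lists in 4 members, where 40.0% of genes had such a region. It lay in the last known exon for 1 of them, Hdac4, at chr1:91932618-91933229, in exon 26 of 26 of the known transcript, with 3.13- to 5.13-fold enrichment over input. That transcript ends at 91932749, whereas the assembled Hdac4 locus runs on to 91928741 in batch 1 and 91928780 in batch 3, so the distance to the 3′ end depends on the transcript model. In Hdac8 it lay at exon 1 of 11 (chrX:102505079-102505334, 4.17- to 6.31-fold). The known transcript starts at 102505148, so 46 to 70 bases of the peaks lay on that exon. Except for a peak of 46 bases, the peaks ran on upstream of it, within the assembled locus that starts at 102505418 in batch 1. In Hdac1 it lay in exon 2 of 14 (chr4:129534635-129534772, 2.56- to 3.04-fold), and in Hdac9 in exon 14 of 28 (chr12:34373941-34374160, 2.75- to 3.27-fold). Hdac5 had 4 separate regions, in exons 1, 6, 11 and 27 of 28, each in 2 or 3 lists. Its exon 1 region (chr11:102230027-102230150) was the most enriched of Hdac5, at 6.13- and 6.49-fold, and came from a single immunoprecipitation. Hdac9 had further regions in exons 5 and 6, in 1 and 2 lists, and in exon 1 of the 12-exon transcript at the internal start (5.12-fold, 1 list). Hdac6 had regions in exons 1 and 25 of 29, each in 2 lists, and Hdac7 a region in exon 3 of 26 in 1 list. The lists hold 16747 to 18291 peaks each, with a median enrichment of 4.02- to 4.22-fold. The shared regions of Hdac1 and Hdac9 lay below these medians, with −log10 q of 1.66 to 2.66 and 1.60 to 2.84.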

How the data were processed

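RNA-seq, H3K27ac and H3K27me3 ChIP-seq and m6A immunoprecipitation from 35 labelled samples were used as deposited on mm10. The submitters' processing notes name TopHat2 2.1.0, Cufflinks, Cuffdiff, Bowtie2 2.3.1 and MACS2 without roles. The authors deposited raw fragments per locus (expected counts, of which 5.31% in batch 1 and 2.31% in batch 3 were not whole) and FPKM values, per the file headers, with 1 merged assembly for each batch. The tables of batch 1 and batch 3 gave 13 libraries. The table named for batch 2 is identical to that of batch 1, so the 6 libraries of batch 2 were not analysed here. Peak scores, the fold over input (signal) and −log10 q are the authors' values in the deposited peak lists, called for each line.

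Estimated counts were rounded, summed by gene name and tested with edgeR 4.0.16 (quasi-likelihood, TMM, low-count filter, Benjamini-Hochberg threshold 0.05). Batch was a term where both batches entered, and R 4.3.3 was used. Loci without a known gene held 0.352 to 2.16% of fragments and were not tested. CPM values are TMM-scaled. DESeq2 1.42.0, limma 3.58.1 on log2(FPKM + 1) and other settings were alternatives. On simulated counts for KO against WT over both batches, with 13216 genes, 77.1% of 96 2-fold and 42.9% of 98 1.5-fold changes were recovered. A far larger share, 61.4% of genes, was called in the data, so recovery there may differ. In the expression tables a library carries its group and a replicate number but no line, so libraries were grouped by the table's condition. Promoters were 2 kb on each side of assembled start sites (overlap of 1 base or more), and the start sites used beside them and the rule of the same bases in all m6A lists were chosen after seeing the data. Members, gene lists and markers were chosen with earlier results of these data known. Named genes were all members, the 2 largest called rises and falls of each list, and the gene most like each member (that of Hdac1 is not reported here), and other genes of the lists were named after their values were seen.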

Additional observations from a re-analysis of the deposited data

Results flagged for a closer look

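Hdac7 and Hdac9 were singled out because their KO changes differed between the batches by the interaction test (edgeR). For Hdac7 the log2 change in batch 3 minus that in batch 1 was -0.59, with KO libraries at 82.1 and 83.7 CPM above 66.6 and 73.1 in batch 3 and at 40.5 to 45.0 above 22.3 to 26.9 in batch 1. For Hdac9 the difference was -0.60, with KO below WT in all libraries of both batches. The call of a batch difference was lost in 6 of 18 alternatives for Hdac7 and in 12 of 18 for Hdac9. It was made for 14.4% of all genes tested. No group had the 4 to 10 samples needed to test a single library for standing apart.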

How the results depend on the processing

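No paired analysis was possible because the labels give every line its own number and the tables do not tie libraries to lines. For KO against WT over both batches, the same 3 members were higher and the same 5 lower in all 19 alternatives. The count of members whose KO change differs between batches was 2, was 1 without the low-count filter and 0 with limma on log2(FPKM + 1), log2(FPKM + 0.1) or without a filter, and ranged from 0 to 4 when a library was left out (4 without KO library 1 of batch 3, where Hdac2 and Hdac3 joined). With a peak over at least 50% of the 4 kb window the H3K27ac count fell from 8 to 2. With −log10 q of at least 5 the m6A count fell from 5 to 1, which left Hdac4. The cause of these falls was not tested. Values near 0 changed sign without being called. In limma on FPKM, with pseudocounts 1 and 0.1 and without the filter, Hdac4 gave -0.0088, -0.0092 and -0.0088 for KO against WT over batches, -0.08 each in batch 1 alone, and -0.0038, -0.0045 and -0.0038 for KO against Het, where edgeR called it. In the same 3 fits Het against WT gave 0.02 each for Hdac5 and 0.11, 0.13 and 0.11 for Hdac7. Hdac6 gave 0.0047 over batches with all genotypes in the fit and 0.00014 in batch 1 without joined loci. Leaving out a library gave Hdac6 -0.05 to 0.04 over batches, -0.07 to 0.07 in batch 1, -0.14 to 0.07 in batch 3 and -0.12 to 0.0029 against Het. For Het against WT it gave -0.04 to 0.02 for Hdac2 and -0.13 to 0.05 for Hdac7. Without a filter, limma no longer called Hdac5 in batch 3 (-0.68, adjusted p = 0.14). Batch 3 has 2 libraries a group, which limits what it can show. In simulated counts of 12696 genes, 16.2% of 99 1.5-fold and 68.0% of 97 2-fold changes were recovered there. A far larger share, 31.7% of genes, was called in the data of that batch, so recovery in the data may differ.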
